A study of Mus musculus with 29 samples.

Results

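The 8 genes described here encode the ligands of the inhibitory checkpoint receptors of T cells, and they were taken from the count table by symbol: Cd274, Pdcd1lg2, Cd80, Cd86, Pvr, Nectin2, Lgals9 and Tnfrsf14. All 8 were found among the 24421 gene rows of the table, Nectin2 under its older symbol Pvrl2. The libraries came from 29 female C57BL/6J mice implanted intraperitoneally with YTN16 cells, a mouse gastric cancer line that seeds the peritoneum, and each library is a separate mouse. The study asked how peritoneal tumors respond to anti-PD1 and anti-CTLA4 antibodies, given alone or together (dual ICI).

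At 3wk (day 21) there were 5 untreated mice, which received PBS, and 5 dual ICI mice. At 5wk (day 35) there were 5 untreated, 5 anti-PD1, 4 anti-CTLA4 and 5 dual ICI mice. The antibodies were injected intraperitoneally, and every group carried the implanted YTN16 cells on an intact immune system. The study describes 3 of the dual ICI mice at 5wk as cured and 2 as uncured by mouse number. The number in the library title was taken as that mouse number, since the labels give only treatment and day, so each comparison of uncured or cured mice rests on this match. The study also counted 1 cured mouse among those given anti-PD1, and no label says which library it is. Libraries held between 25989217 and 31219650 counts. The tissue is labelled as tumor, but it is stripped peritoneum, and 12 skeletal muscle markers took between 3.43% and 20.8% of the counts of a library. The sum of 13 gastric epithelium markers, which stand for the tumor cells, was 615.6 CPM (counts scaled to the total of a library after adjustment by its TMM normalization factor) or more in all but 4 libraries. In the 3 cured mice it lay between 11.2 and 47.4 CPM, and in anti-PD1 mouse 5 it was 33.4 CPM. The libraries of the 3wk and 5wk mice carry different identifier series, so day and library series cannot be told apart. In such bulk tissue, fewer cells of a type and less RNA per cell cannot be told apart either.

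Checkpoint ligands sit on tumor cells, macrophages, dendritic cells and stroma, and each one restrains or stimulates a T cell according to the receptor it meets. Cd274 (PD-L1) and Pdcd1lg2 (PD-L2) bind PD1, the target of one of the antibodies. Cd80 and Cd86 bind CTLA4, the target of the other antibody, and also the stimulatory receptor CD28. Pvr and Nectin2 belong to the nectin family and bind the inhibitory TIGIT and the stimulatory CD226. Lgals9 encodes galectin-9, a secreted lectin that binds TIM3 (Havcr2), and Tnfrsf14 encodes HVEM, which binds BTLA, CD160 and the cytokine LIGHT (Tnfsf14). Interferon gamma is the best known inducer of PD-L1.

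Per kilobase of exon, the mean level over the 29 libraries was highest for Lgals9 (53.8 CPM per kb), followed by Nectin2 (16.3 CPM per kb) and Tnfrsf14 (7.78 CPM per kb). Cd274 and Pvr were at 4.43 and 4.34 CPM per kb, and Cd86 was at 2.27 CPM per kb. The lowest were Pdcd1lg2 at 0.577 and Cd80 at 0.438 CPM per kb. The levels below are CPM, which is not scaled by length, so they compare mice and not genes. Pvr had the narrowest spread over mice, 2.21-fold from the lowest to the highest library, and Pdcd1lg2 the widest, from 2 counts in a library to 143.

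**Figure D1:**
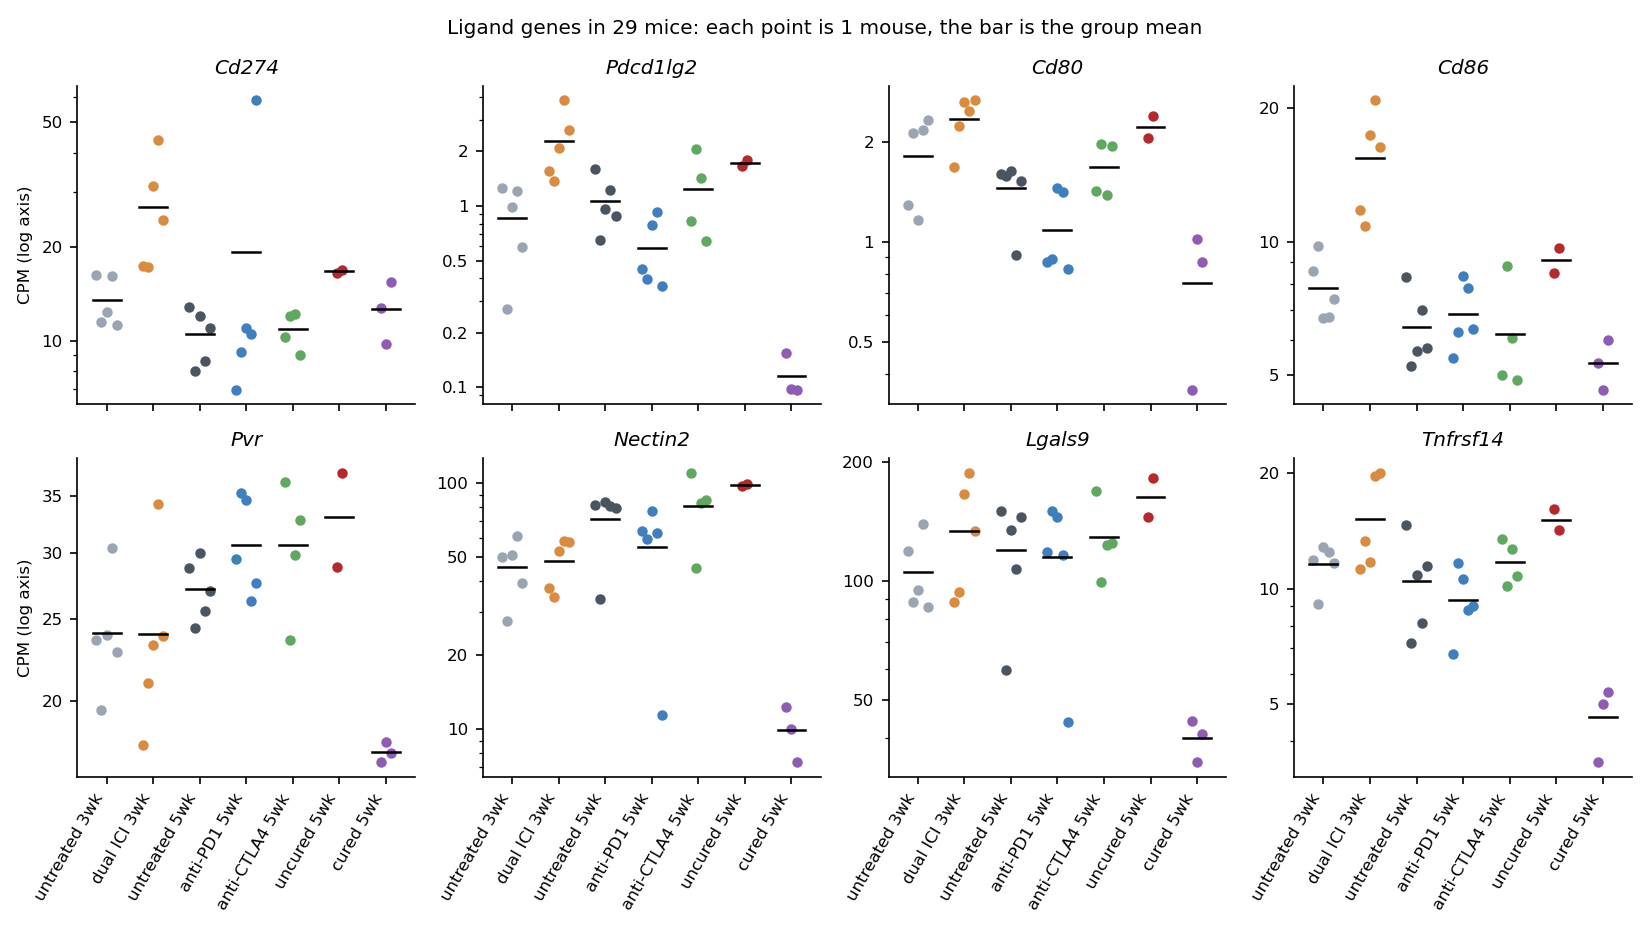
Level of each of the 8 ligand genes (CPM, log axis) in 29 mice in 7 groups, 1 point per mouse, with a bar at the group mean. The cured mice lie below every other mouse for Pdcd1lg2 and Tnfrsf14, and Cd274 in them (9.74 to 15.4 CPM) overlaps the untreated mice (8.01 to 12.8 CPM).

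Cd274 and Pdcd1lg2 are neighbours in the genome, both on the plus strand of chromosome 19, at 29367455 to 29388095 and 29410919 to 29471161 (GENCODE vM21, GRCm38). Each overlaps an annotated antisense gene, AC119228.1 and A930007I19Rik, and the sources used here do not say whether reads were counted by strand, so reads of such a pair cannot be told apart. The same holds for Pvr and Nectin2, which overlap Gm16251 and Gm20512. Their upstream sequences are shown because the expression of these neighbours parted in the cured mice. They are the 250 bases before the RefSeq start (GRCm38.p6, plus strand), Cd274 at chr19:29367188-29367437 and Pdcd1lg2 at chr19:29410669-29410918. Capitals mark a match to an NF-kB motif, the only match to the motifs given here.
Cd274: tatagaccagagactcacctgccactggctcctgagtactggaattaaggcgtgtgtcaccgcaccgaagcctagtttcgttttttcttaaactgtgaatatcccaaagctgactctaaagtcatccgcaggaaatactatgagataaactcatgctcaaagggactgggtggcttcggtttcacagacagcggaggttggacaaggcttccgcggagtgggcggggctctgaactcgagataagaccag
Pdcd1lg2: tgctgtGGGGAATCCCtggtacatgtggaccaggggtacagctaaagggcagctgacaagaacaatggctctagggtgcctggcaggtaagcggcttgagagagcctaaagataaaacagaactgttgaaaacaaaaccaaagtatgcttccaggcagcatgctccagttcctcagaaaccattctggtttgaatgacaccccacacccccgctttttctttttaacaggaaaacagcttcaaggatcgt
Both motifs given here, which are linked to inflammatory signalling, were read on both strands, from 250 bases before to 50 bases after the start. They are an element of the interferon regulatory factors (GAAANNGAAA) and NF-kB. Of 32851 RefSeq promoters, 3.44% and 4.51% held these motifs. Of the 6 ligand genes with a promoter entry, 3 held either of them. The Pdcd1lg2 window held 1 NF-kB match, and the Cd274 window held neither.

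Cd274 was higher in every dual ICI mouse than in every untreated mouse at 3wk. In the untreated mice it was at 16.3, 11.5, 12.4, 16.1 and 11.2 CPM, and in the dual ICI mice at 17.4, 17.2, 31.2, 43.7 and 24.4 CPM. Its fold change was 1.00 ± 0.26 (log2 ± SE, n = 5 and 5), with an adjusted p of 0.136 by the quasi-likelihood test of edgeR, so it did not pass the threshold of 0.05. Pdcd1lg2 showed the same order of groups. It was at 1.26, 0.271, 0.982, 1.21 and 0.594 CPM in the untreated mice and at 1.56, 1.38, 2.08, 3.82 and 2.61 CPM in the dual ICI mice. The lowest dual ICI mouse lay just above the highest untreated mouse, and the fold change was 1.42 ± 0.41 (log2, adjusted p = 0.183).

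At 5wk the PD1 ligands parted. Cd274 was at 12.8, 8.01, 12.0, 8.63 and 11.0 CPM in the untreated mice, at 16.5 and 16.8 CPM in the uncured mice and at 12.8, 9.74 and 15.4 CPM in the cured mice. The uncured mice were above all untreated mice, while the cured mice overlapped them. Against untreated mice the fold change was 0.66 ± 0.23 in the uncured (log2, unadjusted p = 0.0174, adjusted p = 0.734) and 0.29 ± 0.21 in the cured mice (adjusted p = 0.285).

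Pdcd1lg2 was at 1.6, 0.651, 0.967, 1.23 and 0.881 CPM in the untreated mice at 5wk and at 1.67 and 1.80 CPM in the uncured mice. In the cured mice 3, 2 and 2 counts were found per library, or 0.154, 0.0974 and 0.0969 CPM. Every cured mouse was below every other library of the series. Scaled by library totals adjusted with their TMM factors, summed counts were 9.42-fold higher in the untreated than in the cured mice (95% exact interval 4.47 to 23.8, counting error only). On the same scale they were 15.1-fold higher in the uncured than in the cured mice (7.1 to 38.3). By edgeR the adjusted p was 0.001 against untreated and 7.43e-05 against uncured mice. A fitted fold is not given, since it depends on the prior count at so few reads. Per count of Ptprc, the leukocyte marker CD45, Pdcd1lg2 was at 0.0245 ± 0.0068 in the untreated and 0.00274 ± 0.0012 in the cured mice, and Cd274 at 0.245 ± 0.040 and 0.291 ± 0.073 (SD, n = 5 and 3). Ptprc itself was at 44.8 ± 15.6 and 43.9 ± 5.52 CPM, and the sum of 9 dendritic cell markers lay between 34.2 and 68.9 CPM in the untreated and between 24.5 and 29.8 CPM in the cured mice, with no overlap. The part of these cells in the result was not tested.

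The number of Cd274 counts per Pdcd1lg2 count puts both genes on one scale within a library. It was 7.98, 12.3, 12.4, 7.0 and 12.5 in the untreated mice at 5wk, 9.88 and 9.35 in the uncured mice and between 83.0 and 159.0 in the cured mice (249 to 3, 200 to 2 and 318 to 2 counts). The cured mice were above all mice with tumor markers, of which the highest was untreated mouse 2 at 3wk with 42.3 on only 7 Pdcd1lg2 counts. Anti-PD1 mouse 5, whose gastric epithelium sum was as low as that of the cured mice, had a ratio of 162.4. This ratio was chosen after its values were seen and was not tested.

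**Figure D2:**
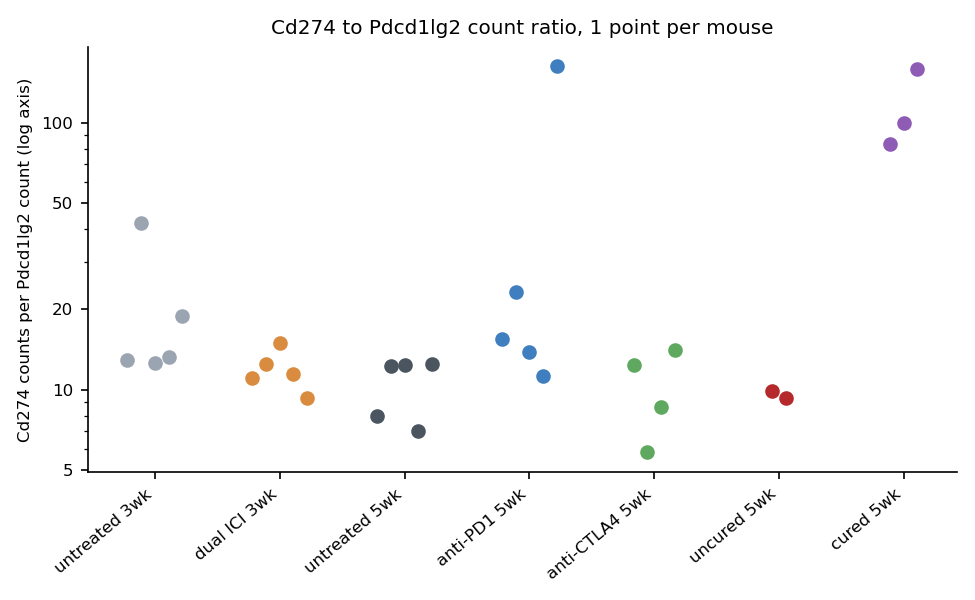
Cd274 counts per Pdcd1lg2 count (log axis), 1 point per mouse, in 7 groups. The 3 cured mice (83.0 to 159.0) and anti-PD1 mouse 5 (162.4) lie above all other mice.

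Anti-PD1 mouse 5 had the highest Cd274 level of the series in CPM, 58.7. This rank rests on the TMM factors, 0.6917 in its library and 1.198 in that of dual ICI mouse 4 at 3wk. Before that adjustment, the former held 1137 Cd274 counts of 28000533 and the latter 1636 of 31219650. The other anti-PD1 mice were at 6.97, 9.19, 11.0 and 10.5 CPM, and the highest of the 28 other libraries was at 43.7 CPM. The group therefore had a mean of 19.3 ± 22.1 CPM (SD, n = 5), and its fold change over untreated mice of 0.87 ± 0.56 (log2, adjusted p = 1) turned to -0.17 without this mouse. In the same library 12 skeletal muscle markers took 18.5% of the counts. The genes named next for this mouse were chosen after their values were seen. The interferon-inducible gene Gbp4 was at 130.1 CPM there, against 15.5 to 22.2 CPM in the other anti-PD1 mice. The interferon gamma gene Ifng was at 0.465 CPM against at most 0.303 CPM in the other 4. This difference rests on few reads, since 10 counts equal 0.516 CPM in the library of mouse 5. Cxcl9 at 26.8 CPM and Irf1 at 63.6 CPM lay within the range of the other 4. Pdcd1lg2 was at 0.361 CPM in this mouse, below the other anti-PD1 mice (0.397 to 0.932 CPM). Pdcd1lg2 over the group was lower than in untreated mice by 0.85 ± 0.35 (log2, unadjusted p = 0.0355, adjusted p = 1). In the anti-CTLA4 mice Cd274 ranged from 8.99 to 12.2 CPM and Pdcd1lg2 from 0.638 to 2.06 CPM, and both groups overlapped the untreated mice.

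Cd86, the more abundant of the CTLA4 ligands on resting antigen-presenting cells, gave the smallest p of the 8 genes at 3wk. It was at 8.58, 9.76, 6.73, 6.74 and 7.42 CPM in the untreated mice and at 11.8, 10.8, 17.4, 20.8 and 16.4 CPM in the dual ICI mice, again without overlap. The fold change was 0.98 ± 0.21 (log2, adjusted p = 0.0601). Cd86 per count of Ptprc was 0.101 ± 0.018 in the untreated and 0.126 ± 0.013 in the dual ICI mice (SD, n = 5 and 5), and on that scale the groups overlapped. Ptprc itself was at 78.7 ± 9.79 and 122.7 ± 33.2 CPM, and the sum of 9 macrophage markers at 1065 to 1193 and 1241 to 2164 CPM. Leukocyte and macrophage RNA thus moved with Cd86 and Cd274, and their part in these results was not tested. Cd80, its partner ligand, was at 1.16 to 2.34 CPM in the untreated and at 1.69 to 2.67 CPM in the dual ICI mice at 3wk (log2 fold change 0.37 ± 0.25).

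At 5wk Cd86 was at 8.33, 5.25, 5.66, 7.00 and 5.76 CPM in the untreated mice, at 8.47 and 9.68 CPM in the uncured mice and at 5.32, 4.63 and 6.00 CPM in the cured mice. Cd80 was at 1.6, 1.59, 1.64, 0.915 and 1.53 CPM in the untreated mice, at 2.05 and 2.40 CPM in the uncured mice and at 0.358, 1.02 and 0.872 CPM in the cured mice. For both genes the uncured mice were above all untreated and all cured mice, and the cured mice overlapped the untreated ones. Against untreated mice, neither passed the test in the uncured (Cd86 0.50 ± 0.24, Cd80 0.60 ± 0.33, adjusted p = 0.734) or the cured mice (Cd86 -0.24 ± 0.21, adjusted p = 0.363, Cd80 -0.93 ± 0.40, adjusted p = 0.0813). Between uncured and cured mice both passed, with Cd86 0.74 ± 0.19 and Cd80 1.53 ± 0.41 higher in the uncured (log2, adjusted p = 0.00786 and 0.00976). Without uncured mouse 5 these adjusted p rose to 0.0562 and 0.0651. Cd80 rests on few reads, between 7 and 93 counts per library.

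No difference was detected for the nectin-family ligands with dual ICI at 3wk. Pvr was at 24.1 ± 3.96 CPM in the untreated and 24.0 ± 6.22 CPM in the dual ICI mice (SD, n = 5 and 5), and Nectin2 at 45.9 ± 12.7 and 48.2 ± 11.4 CPM. Their log2 fold changes were 0.008 ± 0.18 and 0.08 ± 0.22, with intervals wide enough that a modest shift cannot be told from none. Nectin2 fell in the cured mice at 5wk by the largest fold of the 8 genes after Pdcd1lg2. It was at 81.5, 33.8, 83.6, 81.0 and 79.7 CPM in the untreated mice, at 97.8 and 99.0 CPM in the uncured mice and at 12.3, 10.0 and 7.36 CPM in the cured mice. The fall against untreated mice was -2.83 ± 0.32 (log2, adjusted p = 0.000235), and the uncured mice were 9.76-fold above the cured (adjusted p = 1.06e-06).

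Pvr was at 28.8, 24.4, 30.0, 25.6 and 27.0 CPM in the untreated mice, at 28.8 and 37.3 CPM in the uncured mice and at 16.9, 17.8 and 17.3 CPM in the cured mice. The cured mice were lower without overlap by a smaller step than for Nectin2, -0.62 ± 0.13 (log2, adjusted p = 0.0045). Anti-PD1 mouse 5 separated the pair, with Nectin2 at 11.4 CPM, among the cured mice, and Pvr at 27.6 CPM, among the mice with tumor.

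**Figure D3:**
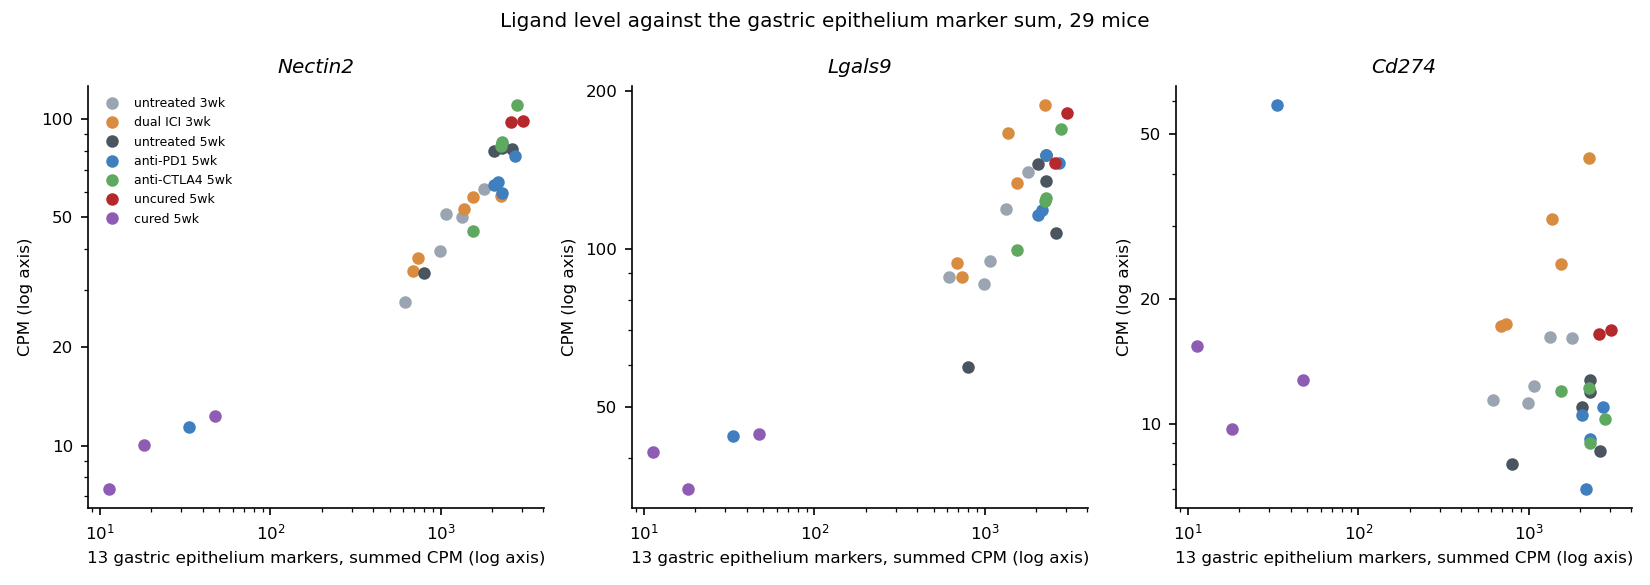
Nectin2, Lgals9 and Cd274 (CPM, log axis) against the summed CPM of 13 gastric epithelium markers (log axis) in 29 mice, colored by group. The 3 cured mice and anti-PD1 mouse 5 form a cloud at 11.2 to 47.4 CPM of the markers, where Nectin2 and Lgals9 are low, whereas Cd274 there spans 9.74 to 58.7 CPM.

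Of the 8 genes, Nectin2 followed the gastric epithelium markers most closely. With the mean of each of the 7 groups subtracted, its Pearson r with these 13 markers was 0.931 (Spearman 0.85) over the 29 libraries, and r with 12 skeletal muscle markers was -0.764. For Lgals9 the r were 0.842 and -0.904, for Pvr 0.426 and -0.771, and for Cd274 -0.512 and 0.107. With 5 neutrophil markers the r was 0.822 for Nectin2, 0.899 for Lgals9 and 0.607 for Pvr, for the latter pair above that with the epithelium markers. The Spearman value of Cd274 with the epithelium markers was 0.003. All points share library depth and composition, and these values are descriptions. All 5 neutrophil markers were called lower in the cured than in the untreated mice, against 26.7% of all genes, with a median of -4.08 (log2). Their sum lay between 7.06 and 9.20 CPM against 28.8 to 93.5 CPM. Gastric epithelium and neutrophil markers thus moved with Nectin2, Lgals9 and Pvr, and skeletal muscle markers moved against them. The part of all these markers in the fall in cured mice was not tested.

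Lgals9 and Tnfrsf14 were the 2 ligand genes whose upstream window held an interferon regulatory factor element, a motif found in 2.98% of upstream windows. Lgals9 held a match at position -55 from the RefSeq start and another at 15, and Tnfrsf14 held a match at -64. The upstream 250 bases are given on the minus strand of GRCm38.p6, Lgals9 at chr11:78984925-78985174 and Tnfrsf14 at chr4:154928078-154928327, with the element in capitals as it reads on that strand. The matches are letters only, and no binding was measured.
Lgals9: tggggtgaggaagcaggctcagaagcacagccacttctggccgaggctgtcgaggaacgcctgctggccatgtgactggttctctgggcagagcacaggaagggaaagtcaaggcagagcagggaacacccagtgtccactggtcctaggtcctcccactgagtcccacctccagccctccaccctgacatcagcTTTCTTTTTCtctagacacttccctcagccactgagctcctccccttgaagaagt
Tnfrsf14: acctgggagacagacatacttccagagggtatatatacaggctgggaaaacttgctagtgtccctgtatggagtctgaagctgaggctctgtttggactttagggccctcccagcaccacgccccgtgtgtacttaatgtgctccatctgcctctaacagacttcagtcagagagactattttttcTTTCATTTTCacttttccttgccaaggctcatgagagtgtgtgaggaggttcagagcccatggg
At 3wk Lgals9 was at 105.6 ± 23.2 CPM in the untreated and at 134.1 ± 43.6 CPM in the dual ICI mice (log2 fold change 0.36 ± 0.23), and Tnfrsf14 at 11.6 ± 1.45 and 15.2 ± 4.31 CPM (0.40 ± 0.19). Neither passed the test (adjusted p = 0.649 and 0.503), and both overlapped between groups.

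At 5wk Lgals9 was at 150.8, 59.5, 135.0, 107.2 and 145.2 CPM in the untreated mice, at 145.5 and 181.9 CPM in the uncured mice and at 44.3, 34.8 and 41.1 CPM in the cured mice. Tnfrsf14 was at 14.7, 7.20, 10.9, 8.15 and 11.5 CPM in the untreated mice, at 16.1 and 14.2 CPM in the uncured mice and at 3.53, 5.02 and 5.38 CPM in the cured mice. Both were lower in all cured than in all untreated mice. Lgals9 fell by 1.55 ± 0.28 and Tnfrsf14 by 1.15 ± 0.27 on the log2 scale (adjusted p = 0.00246 and 0.00828). With group means subtracted, the Pearson r of Tnfrsf14 was -0.656 with the skeletal muscle, 0.485 with the neutrophil and 0.248 with the gastric epithelium markers. The part of these markers in its fall was not tested. Anti-PD1 mouse 5 was at 43.9 CPM for Lgals9, within the range of the cured mice, and at 9.03 CPM for Tnfrsf14, within the range of the untreated mice.

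Counted over the 8 genes, dual ICI at 3wk gave 8 higher and 0 lower, with 0 past an adjusted p of 0.05, where 0.574% of 15503 genes passed. The 8 include Pvr (0.008 ± 0.18) and Nectin2 (0.08 ± 0.22), both near 0 on the log2 scale. Pvr turned negative with upper-quartile normalization. The share of all genes with a positive fold change was not computed. At an unadjusted p under 0.05, 3 of the 8 passed (Cd86, Cd274 and Pdcd1lg2), against 10.7% of all genes. DESeq2 called these 3, with adjusted p of 0.000538, 0.0135 and 0.0275. The median log2 fold change of the 8 was 0.39, against 0.02 over all genes. Groups did not overlap for 3 of 8, against 1.76% of genes higher without overlap. Per count of Ptprc the mean was higher with dual ICI for 3 of 8 genes (Cd274, Pdcd1lg2 and Cd86) and lower for 5 of 8. Among the latter was Pvr, at 0.310 ± 0.061 in the untreated and 0.198 ± 0.022 in the dual ICI mice. Ptprc itself was higher with dual ICI (122.7 ± 33.2 against 78.7 ± 9.79 CPM). These ratios were not tested, and no share over all genes was computed for them.

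In the uncured against untreated mice all 8 were higher, by 0.28 to 0.69 (log2), and 0 passed, as did 0.0% of 16156 genes. The median of the 8 was 0.51, against -0.01 over all genes. DESeq2 called 0 of the 8 there as well, and 1 of 8 had an unadjusted p under 0.05 (Cd274), against 4.87% of all genes. The uncured mice lay above all untreated mice for 5 of 8 genes, against 9.07% of genes. Leukocyte RNA moved with them, and Ptprc was at 77.8 and 86.9 CPM in the uncured and between 27.0 and 67.9 CPM in the untreated mice. Per count of Ptprc the mean was lower in the uncured mice for 8 of 8 genes, with Cd274 at 0.203 ± 0.013 against 0.245 ± 0.040, Lgals9 at 1.98 ± 0.16 against 2.69 ± 0.44 and Pvr at 0.400 ± 0.042 against 0.656 ± 0.182 (SD, n = 2 and 5). The direction on this scale was opposite to that in CPM, since mean Ptprc rose by a larger fold than each ligand. These ratios were not tested, and no share over all genes was computed for them.

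In the cured against untreated mice 5 of 8 were called, all lower, where 26.7% of 15816 genes were called lower and 44.7% either way. These 5 did not overlap, against 26.3% of genes lower without overlap. The median log2 fold change was -1.04 for the 8 and -0.05 over all genes. Between uncured and cured mice 7 of 8 were called higher in the uncured, where 36.9% of genes were called higher and 70.0% either way, and all 8 did not overlap, against 43.4% of genes. Cd274 was the gene not called (0.37 ± 0.19, adjusted p = 0.108), and the count was 8 without cured mouse 4 and 5 without uncured mouse 5. The uncured group holds only 2 mice, so its spread rests on the other mice in each fit.

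**Figure D4:**
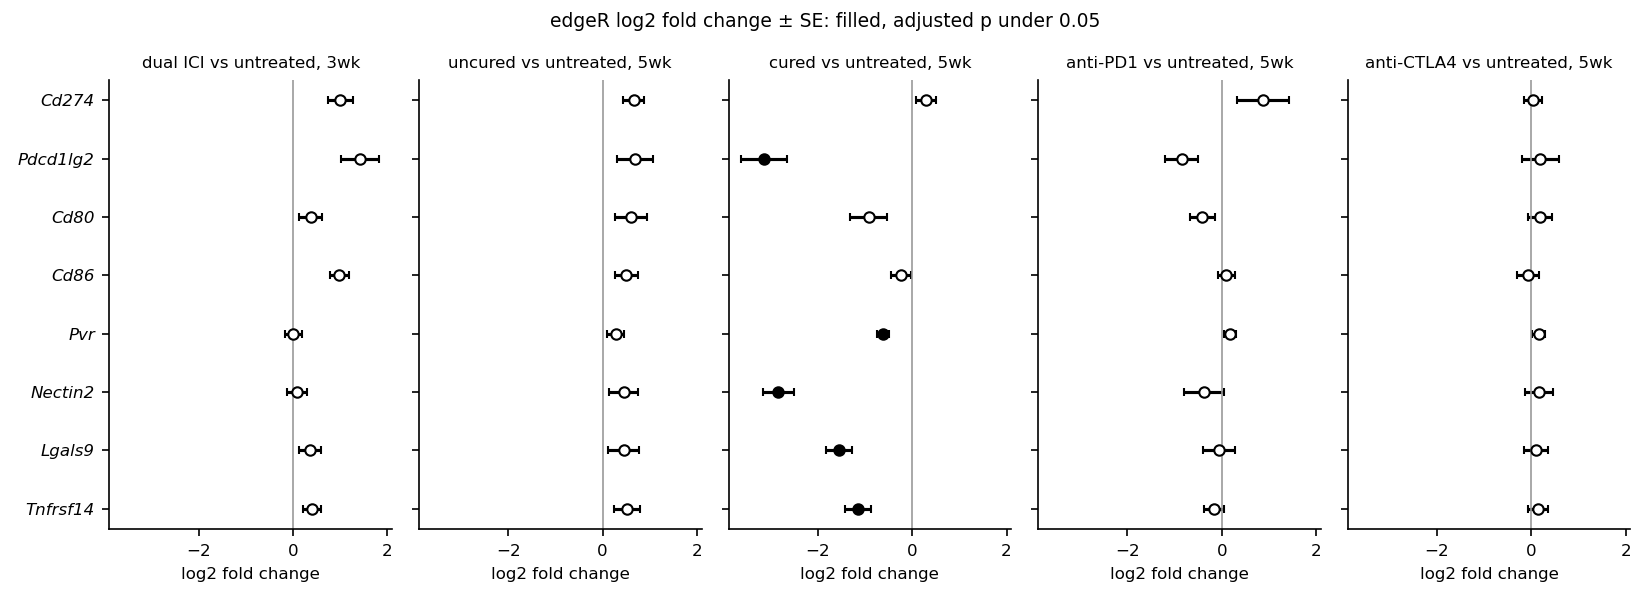
edgeR log2 fold change ± SE of each ligand gene in 5 comparisons with untreated mice, filled where the adjusted p is under 0.05. Filled points appear only in the cured comparison, for Pdcd1lg2, Pvr, Nectin2, Lgals9 and Tnfrsf14.

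Taken as a single group, the 5 dual ICI mice at 5wk gave 0 of 8 calls against untreated mice (0.0% of 15588 genes passed), and 1 of 8 at an unadjusted p under 0.05, against 6.87% of all genes. That gene was Cd274 (0.45 ± 0.19, unadjusted p = 0.044). DESeq2 called 0 of 8. The anti-PD1 and anti-CTLA4 mice each gave 0 of 8 by edgeR and by DESeq2, where 0.0% of 15640 and 0.0% of 15781 genes passed by edgeR. At an unadjusted p under 0.05 the counts were 1 and 0 of 8, against 1.31% and 0.811% of all genes. These comparisons share the untreated mice of 5wk.

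Over time, 0 of 8 differed between untreated mice at 5wk and 3wk, where 10.8% of 15604 genes did, and Nectin2 was highest at 0.65 ± 0.26 (log2, unadjusted p = 0.0264, adjusted p = 0.115). It was the single gene of the 8 with an unadjusted p under 0.05, against 30.1% of all genes, and DESeq2 called 0 of 8. Against dual ICI mice at 3wk, the uncured mice at 5wk had higher Nectin2 (1.02 ± 0.22, adjusted p = 0.043), the only call of the 8, where 5.31% of 16135 genes were called. The call was lost in a fit of all 29 libraries and without either uncured mouse or dual ICI mouse 1, 2 or 3. Cd274 and Cd86 were lower in both uncured mice than in each dual ICI mouse at 3wk, by -0.70 ± 0.37 and -0.78 ± 0.28 (log2, adjusted p = 0.245 and 0.115), where 17.5% of genes were lower without overlap. The interaction term set uncured against untreated mice at 5wk beside dual ICI against untreated mice at 3wk. The cured mice were left out of it. No difference between these changes was detected by edgeR (0 of 8, 0.0% of 16542 genes) or by DESeq2 (0 of 8). At an unadjusted p under 0.05 it was 0 of 8, against 6.35% of all genes. The largest value of the interaction term was -0.71 ± 0.62 for Pdcd1lg2.

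The ordering of the 7 group means was similar for most genes. The dual ICI mice at 3wk stood first for Cd274, Pdcd1lg2, Cd80, Cd86 and Tnfrsf14, and the uncured mice for Pvr, Nectin2 and Lgals9. The cured mice stood last for all genes but Cd274, for which the untreated mice at 5wk did. Neighbours in these orders mostly differed by less than the larger SD of the pair. The exceptions without overlap were the step to the cured mice for Pdcd1lg2, Nectin2, Lgals9 and Tnfrsf14, the step from dual ICI 3wk to uncured for Cd86, from uncured to untreated 3wk for Cd274 and from uncured to anti-CTLA4 for Tnfrsf14.

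The receptors were read from a list of 11 genes, of which 10 were in the table. The list also holds the cytokine gene Tnfsf14 (LIGHT), which is included in the counts and medians below. At 3wk 10 of 10 were higher with dual ICI and 0 passed (7 at an unadjusted p under 0.05, all higher, against 10.7% of all genes), with a median of 0.90 (log2) against 0.02 over all genes. The smallest p belonged to Cd96 (1.6 ± 0.33, adjusted p = 0.0585), an inhibitory receptor of Pvr, and Cd226 (1.04 ± 0.24, adjusted p = 0.0895). In the uncured mice 10 of 10 were higher and 0 passed (3 unadjusted, against 4.87% of all genes), with a median of 0.79. In the cured mice 7 of 10 were lower and 3 higher, of which 5 and 2 were called, against 26.7% and 18.0% of all genes. Pdcd1 (PD1) was lower by -3.77 ± 0.37 (adjusted p = 0.000151) and Havcr2 (TIM3) by -2.96 ± 0.47 (adjusted p = 0.00118), while the stimulatory receptors Cd226 and Cd28 rose by 1.85 ± 0.36 and 1.73 ± 0.36 (adjusted p = 0.00321 and 0.00488). Cd28 was also at 10.3 CPM in anti-PD1 mouse 5, above all 28 other libraries. T cell markers moved with the receptors in direction, except for those that rose in the cured mice, such as Cd226 and Cd28. In the cured against untreated mice 7 of 8 T cell markers were lower, 6 of them called, against 26.7% of all genes, with a median of -1.24 (log2). At 3wk 8 of 8 T cell markers were higher with dual ICI and 2 were called, against 0.574% of all genes, with a median of 1.21 (log2). Their sum lay between 15.1 and 29.5 CPM in the untreated and between 44.2 and 80.2 CPM in the dual ICI mice, with no overlap. At 5wk the sum was at 49.1 and 51.3 CPM in the uncured mice, between 17.6 and 31.3 CPM in the untreated and between 10.2 and 14.6 CPM in the cured mice, again with no overlap. The part of T cell RNA in the receptor values was not tested.

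A list of 14 genes was read for the route from interferon gamma to PD-L1. It is broader than that route and also holds chemokines such as Cxcl9 and Cxcl10. With dual ICI at 3wk 12 of 14 were higher and 0 passed (8 unadjusted, all higher, against 10.7% of all genes). The median of the list was 0.66 (log2). Ifng was at 0.263 ± 0.144 CPM in the untreated and 1.21 ± 0.561 CPM in the dual ICI mice (log2 fold change 2.20 ± 0.44, adjusted p = 0.0539). In the uncured mice 13 of 14 were higher and 0 passed (3 unadjusted, all higher, against 4.87% of all genes), with a median of 0.48. In the cured mice 8 of 13 tested were called lower and 1 higher, against 26.7% and 18.0% of all genes. The chemokine Cxcl10 fell by 3.61 ± 0.31 (log2, adjusted p = 0.000128), Cxcl9 fell by 3.6 ± 0.35 (adjusted p = 0.000154) and Ifngr1, a receptor subunit, fell by 1.16 ± 0.20 (adjusted p = 0.00193). The gene that rose, Jak1, a kinase of cytokine receptors, is named after its value was seen and rose by 0.51 ± 0.18 (adjusted p = 0.0423).

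A further 14 ligands of the B7, nectin and related families gave 13 tested at 3wk, with 9 higher, 4 lower and 0 called. At an unadjusted p under 0.05, 2 passed in each direction, against 10.7% of all genes either way. The smallest p were those of Nectin1 (-0.62 ± 0.16, adjusted p = 0.133) and Cd48 (0.70 ± 0.21, adjusted p = 0.192). In the uncured mice 11 of 14 were higher and 0 passed (1 unadjusted in each direction, against 4.87% of all genes either way). In the cured mice 9 of 14 were called, all lower, where 26.7% of all genes were called lower and 44.7% either way. Lgals3 (galectin-3, another lectin ligand) fell by 1.87 ± 0.22, Ceacam1 (an adhesion molecule that binds TIM3) by 2.99 ± 0.38, and Cd276 (B7-H3) by 1.45 ± 0.26 on the log2 scale (adjusted p = 0.000241, 0.000361 and 0.00223). Nectin3, an adhesion partner of the nectins, fell by 1.14 ± 0.24 (adjusted p = 0.00529).

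The genes most like each ligand were read from 16752 genes as the 3 with the highest Pearson r of log2 CPM over the 29 libraries after each group's mean was subtracted. For Cd274 they were Gbp4 (0.965), Gbp7 (0.957) and Iigp1 (0.943), GTPases induced by interferon, and without anti-PD1 mouse 5, left out after the data were seen, the r were 0.923, 0.911 and 0.899. Gbp4 was at 38.7 ± 6.62 CPM in untreated and 112.4 ± 57.3 CPM in dual ICI mice at 3wk, and in the cured mice at 5wk it was at 21.8 ± 4.10 CPM against 25.4 ± 5.24 CPM in the untreated (-0.20 ± 0.20, adjusted p = 0.423). For Pdcd1lg2 the genes were Hrh2 (0.803), Fbxl2 (0.800) and Il12b (0.799), a cytokine subunit of antigen-presenting cells.

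**Figure D5:**
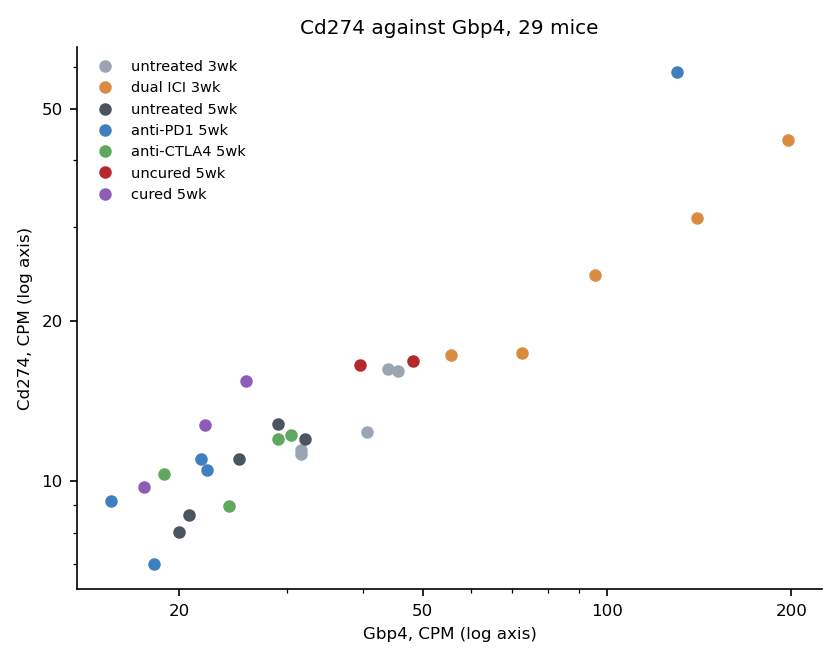
Cd274 against Gbp4 (CPM, both axes log) in 29 mice, colored by group. Points rise together from 15.5 to 197.6 CPM of Gbp4, and anti-PD1 mouse 5 lies at 130.1 CPM of Gbp4 and 58.7 CPM of Cd274.

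Cd86 was most like the leukocyte genes Cd48 (0.849) and Clec4a1 (0.834) and the interferon-inducible Sp110 (0.804). Cd80 had weaker likenesses, to Cdk14 (0.701), Cdk7 (0.700) and Bcl11a (0.678), on few counts. Pvr was most like Prokr2 (0.878), Srpk1 (0.874) and Heatr1 (0.868), and Tnfrsf14 most like Ppifos (0.900), Khnyn (0.870) and Nhlrc3 (0.869). Nectin2 was most like Faah (0.976), AI661453 (0.975) and Slc22a18 (0.973), and Lgals9 most like Scpep1 (0.974), Tusc3 (0.971) and Snx10 (0.965). No ligand was among the 3 genes most like another ligand. Among the 28 pairs of ligand genes, the highest r was that of Nectin2 with Lgals9 (0.884) and the lowest that of Cd274 with Nectin2 (-0.477, Spearman -0.086), while the neighbours Cd274 and Pdcd1lg2 had an r of 0.198 (Spearman 0.428).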

How the data were processed

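Total RNA of 29 mice was sequenced in bulk. The authors deposited a table of raw counts by gene symbol, with no normalization. The submitters' processing notes name genome build mm10, STAR 2.7.0f and featureCounts 1.6.4, the study's methods name another counter, and the strand setting is not given in the sources used here. From these counts, fold changes were fitted with edgeR 4.0.16 in R 4.3.3 (TMM, filterByExpr, glmQLFit, two-sided glmQLFTest, Benjamini-Hochberg over all genes tested). Only the groups compared entered a fit. CPM uses TMM factors over all 29 libraries. These factors were 0.6917 in anti-PD1 mouse 5, between 0.6977 and 0.7299 in the cured mice, and 1.199 and 1.224 in the uncured mice. The alternatives were DESeq2 1.42.0, upper-quartile normalization, other filters, a fit of all 29 libraries, removal of skeletal muscle markers, a replicate block and leaving out each mouse. Motifs were read in RefSeq promoters (GRCm38.p6), and positions came from GENCODE vM21. The fits were tested on simulated data. With libraries of 25989217 counts or more, depth limits mainly Pdcd1lg2 and Cd80.

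The 8 ligand genes and the gene lists were chosen with earlier results of these data known. All 8 are named in every comparison. Of other lists, the genes named are at most 4 that passed, by p, or at most 2 by p where none passed. For likeness, the 3 highest r (prior count 2) are named. A gene that this rule would name, and a motif, are not reported here.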

Additional observations from a re-analysis of the deposited data

Results flagged for a closer look

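In 48 sets of 1 ligand gene in 1 group of 4 or 5 mice, 4 held a mouse whose gap to the nearest other mouse exceeded the 95% limit of Dixon's test, which chance alone does in about 1 of 20 sets. The groups were those of the labels, so the sets of dual ICI mice at 5wk pooled cured and uncured mice. A gene split by outcome can hardly be flagged there. Anti-PD1 mouse 5 gave 2 of the 4 flags, with Cd274 at 58.7 CPM against at most 11.0 CPM in its group and Nectin2 at 11.4 CPM against at least 59.4 CPM. Untreated mouse 2 at 5wk had Nectin2 at 33.8 CPM, where the next lowest was at 79.7 CPM. Untreated mouse 4 at 5wk had Cd80 at 0.915 CPM, where the next lowest was at 1.53 CPM. In untreated mouse 2 the 12 skeletal muscle markers took 18.7% of the counts and the 13 gastric epithelium markers summed to 798.0 CPM, the highest and lowest of its group, and their part in the Nectin2 value was not tested.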

How the results depend on the processing

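Removing the skeletal muscle markers or changing the filter on low counts kept the direction and the call of each ligand fitted in each of the 10 comparisons. A minimum of 10 counts in every library left 70 of 80 fits. The removal dropped only the marker rows, so other muscle RNA stayed in and the effect of muscle content was not tested. At 3wk, DESeq2 called 3 of the 8 genes where edgeR called 0, and leaving out single mice gave 0 to 1 (Cd86, without dual ICI mouse 1 or 2). DESeq2 changed no other call of a ligand. For untreated mice over time the count of 0 became 1 without untreated mouse 2 of 5wk (range 0 to 1). For uncured mice against dual ICI at 3wk the count of 1 became 0 in the fit of all 29 libraries and lay between 0 (without either uncured mouse or dual ICI mouse 1, 2 or 3) and 2 (without dual ICI mouse 4). The cause was not tested.

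The replicate numbers did not pair the mice, since the deviations of same-numbered mice correlated between -0.645 and 0.695. With the replicate block, 1 ligand (Nectin2, adjusted p = 0.0267) was called between untreated mice of 5wk and 3wk where 0 were without it, and Pvr lost its call in the cured mice (adjusted p = 0.0801), which left 4 of 5. It changed no other call. It was not run for uncured against cured mice, which share no number. Cd80 in the cured mice was called in the fit of all 29 libraries (adjusted p = 0.0184).

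Signs turned only in changes that were not called, of which Cd274 with anti-PD1 (0.87) was the largest and turned without mouse 5. With upper-quartile normalization Pvr at 3wk became -0.0080 and Tnfrsf14 in uncured against dual ICI 3wk mice 0.011. With the block Pvr at 3wk became -0.017 and Cd80 in uncured against dual ICI 3wk mice 0.039. When single mice were left out, the log2 fold changes ranged at 3wk from -0.17 to 0.10 for Pvr and from -0.052 to 0.20 for Nectin2. For all dual ICI mice at 5wk they ranged from -0.42 to 0.13 for Cd80 and from -0.060 to 0.20 for Cd86. For anti-PD1 they ranged from -0.22 to 0.15 for Lgals9 and from -0.17 to 1.10 for Cd274. For anti-CTLA4 they ranged from -0.062 to 0.21 for Lgals9, from -0.29 to 0.040 for Cd86, from -0.026 to 0.35 for Nectin2, from -0.037 to 0.11 for Cd274 and from -0.17 to 0.40 for Pdcd1lg2. For uncured against dual ICI 3wk mice they ranged from -0.20 to 0.029 for Cd80 and from -0.11 to 0.11 for Tnfrsf14, and the interaction of Lgals9 from -0.073 to 0.26.

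Over all genes, the 89 calls at 3wk became 507 with DESeq2, 8 in the fit of all 29 libraries and 209 with the block. The 0 calls became 56 in dual ICI and 18 in uncured against untreated mice and 1 for the interaction with DESeq2. The 7067 calls in cured mice became 4016 with the block, the 1687 over time became 3141 with DESeq2, and the 857 in uncured against dual ICI 3wk mice became 3173 with DESeq2, 3192 with the block and 237 in the fit of all 29 libraries.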
